A study of Mus musculus with 8 samples.

Results

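A group of genes of DNA replication and cell proliferation were followed through the open-chromatin maps of mouse cortical neurons with and without Brg1 and with and without depolarisation. It comprises Mcm2, Mcm3, Mcm4, Mcm5, Mcm6 and Mcm7, Pcna, Tyms, Top2a and Mki67, which makes 10 of the 21887 protein-coding genes with a position in the RefSeq table of GRCm38.p6. Open sites were taken from 4 deposited peak lists, peaks of different lists that overlapped by at least 1 bp were joined into 1 site, and a site was assigned to a gene when it lay within 50 kb of the gene body. By this rule 77 of the 62023 sites of the series belonged to the 10 genes, and no site belonged to more than 1 of them.

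The data are ATAC-seq, in which the Tn5 transposase inserts adapters into accessible DNA, from primary cortical neurons of E16.5 mouse embryos. WT denotes the Brg1 WT genotype and cKO the genotype BAF53bCre Brg1F/F, in which a Cre driven by the neuronal BAF53b gene deletes Brg1, which encodes an ATPase subunit of BAF chromatin remodellers, so deletion is limited to cells in which that driver has been active. Basal cultures received no KCl and KCl cultures received 50 mM KCl for 1 h on day 6 in vitro; TTX at 1 µM and APV at 100 µM, blockers of sodium channels and NMDA receptors, were given on day 5 before depolarisation, and whether basal cultures also received them is not stated in the labels. Each of the 4 conditions had 2 libraries, each from 50000 cells, but only 1 peak list per condition was analysed here, so no value below has a replicate error and no test compares the conditions.

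The products of Mcm2 to Mcm7 form the ring-shaped helicase that is loaded onto replication origins before S phase and unwinds DNA at the fork. PCNA is the sliding clamp that holds polymerases on DNA, thymidylate synthase (Tyms) makes the thymidine nucleotide for DNA synthesis, topoisomerase II alpha (Top2a) untangles sister DNA in dividing cells, and Ki-67 (Mki67) coats mitotic chromosomes and is used as a stain for cycling cells. In dividing cells many of these genes are driven by E2F factors, which retinoblastoma-family proteins hold in check outside the cycle, and neurons have left the cycle. An open gene start is therefore not the same as transcription of the gene, which ATAC-seq does not measure.

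The starts of 6 of the genes are printed here because the results turn on them: Pcna, Mcm5 and Mcm6 were open at the start in all 4 conditions, Top2a in 2, and Mcm2 and Tyms in none. The sequences are the 250 bases before the annotated start, 5′ to 3′ on the strand of the gene, from RefSeq (GRCm38.p6). Capitals mark the E2F words TTCCCGC plus TTGGCGC plus TTCGCGC plus TTGCCGC, which E2F factors are known to bind, and also the CCAAT box, known for binding NF-Y, on either strand. The windows are chr2:132253181-132253430 (minus strand) for Pcna, chr8:75109259-75109508 (plus strand) for Mcm5, chr1:128359706-128359955 (minus strand) for Mcm6, chr11:99024190-99024439 (minus strand) for Top2a, chr6:88898781-88899030 (minus strand) for Mcm2 and chr5:30073626-30073875 (minus strand) for Tyms.
Pcna: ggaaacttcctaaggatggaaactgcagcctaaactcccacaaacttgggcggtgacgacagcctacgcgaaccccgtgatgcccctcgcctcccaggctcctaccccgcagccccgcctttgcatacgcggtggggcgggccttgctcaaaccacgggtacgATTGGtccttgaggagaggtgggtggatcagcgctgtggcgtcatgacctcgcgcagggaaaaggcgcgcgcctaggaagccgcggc
Mcm5: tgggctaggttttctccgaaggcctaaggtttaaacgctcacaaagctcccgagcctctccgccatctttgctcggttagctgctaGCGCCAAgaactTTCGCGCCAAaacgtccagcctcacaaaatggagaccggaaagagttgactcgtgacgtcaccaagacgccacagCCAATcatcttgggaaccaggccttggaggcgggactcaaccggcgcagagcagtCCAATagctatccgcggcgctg
Mcm6: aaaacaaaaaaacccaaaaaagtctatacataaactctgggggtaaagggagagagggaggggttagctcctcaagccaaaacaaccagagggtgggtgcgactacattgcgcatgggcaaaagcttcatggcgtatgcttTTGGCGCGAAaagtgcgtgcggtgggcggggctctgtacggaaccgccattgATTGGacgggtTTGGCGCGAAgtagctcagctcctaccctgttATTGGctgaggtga
Top2a: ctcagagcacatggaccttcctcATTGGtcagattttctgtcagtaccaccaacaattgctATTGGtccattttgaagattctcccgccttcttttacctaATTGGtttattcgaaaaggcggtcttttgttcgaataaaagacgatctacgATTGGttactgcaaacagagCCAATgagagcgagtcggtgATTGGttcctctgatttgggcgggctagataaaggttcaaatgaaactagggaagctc
Mcm2: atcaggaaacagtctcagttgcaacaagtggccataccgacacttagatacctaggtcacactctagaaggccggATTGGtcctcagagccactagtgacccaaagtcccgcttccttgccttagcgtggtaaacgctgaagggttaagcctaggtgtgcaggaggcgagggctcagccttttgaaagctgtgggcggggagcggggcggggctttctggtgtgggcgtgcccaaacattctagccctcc
Tyms: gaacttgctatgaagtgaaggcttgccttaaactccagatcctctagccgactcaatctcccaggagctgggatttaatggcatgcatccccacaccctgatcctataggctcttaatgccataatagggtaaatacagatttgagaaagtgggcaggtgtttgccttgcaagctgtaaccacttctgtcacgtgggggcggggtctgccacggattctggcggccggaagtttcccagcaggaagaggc

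A promoter window was matched for 9 of the 10 genes, with 10 annotated starts since Mcm7 has 2, and each window ran from 250 bases before to 50 after the start. An E2F word was found in the windows of 5 of the 9 genes (Mcm3, Mcm5, Mcm6, Mcm7 and Mki67), against 12.1% of 21263 promoter windows of protein-coding genes; the word search covered both strands and allowed hits to overlap. With a T added in front of each word, 4 genes (Mcm3, Mcm5, Mcm6 and Mcm7) and 2.85% of all windows held one. CCAAT was found in 8 of the 9 genes and 38.2% of all windows, with 6 copies in Top2a, and the GC box GGGCGG in 8 and 46.2%. The CHR words TTTGAA and TTCGAA, the cell cycle genes homology region of late cell cycle promoters, were found in Mcm2, Mcm7, Mki67 and Top2a (4 copies) and in 17.6% of all windows. Among all windows with a start peak in all 4 lists, E2F words were in 20.5%, CCAAT in 42.5%, the GC box in 74.0% and CHR words in 10.8%. Of the 9 genes searched, this is the fitting group for Mcm3, Mcm5, Mcm6, Mcm7, Pcna and Mki67. Among windows with no start peak they were in 4.99%, 38.1%, 19.7% and 24.5%. The AP-1 word TGANTCA, an element of many activity-regulated enhancers, was in none of the 9 and in 6.99% of all windows, and the cyclic AMP element TGACGTCA in Mcm5 alone and in 2.23%. Base composition differed among the genes, as the ratio of observed to expected CpG was 0.43 in Tyms, 0.45 in Mcm3 and 0.65 in Mcm2 and between 0.81 and 1.00 in the other windows, against a median of 0.57 over all windows and of 0.83 over those with a start peak in all 4 lists.

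The WT basal list held 34061 peaks, WT KCl 20229, cKO basal 20484 and cKO KCl 25690, so list length alone separates the conditions. From the fold and the p-value of each peak the pileup at the summit and the local background were recovered, in units called fragments here. Whether the unit is a fragment or a read end depends on peak-calling settings that are not known. The most frequent background, which varies with depth and with those settings, was 9.30, 8.23, 9.47 and 8.36 fragments for the lists in that order. The weakest peaks called at this background had 20 to 22 fragments, which is the size of signal below which an open site with that background would not be listed. Where the local background was higher, more fragments were needed. A WT basal site in the Tyms window with 34 fragments over a background of 15.94 ranked at the 0.471th percentile of its list. Markers of the labelled cell type were partly found, since of 10 neuron markers Tubb3, Map2 and Syt1 had a start peak in all 4 lists, while Rbfox3, Dcx, Neurod2, Neurod6 and Slc17a7 had none in any. Start peaks were found at 6 (basal) and 4 (KCl) of 9 neural progenitor markers in WT and at 4 and 7 in cKO; in the same order they were found at 4, 0, 0 and 1 of 6 astrocyte markers, at 3, 2, 3 and 2 of 7 oligodendrocyte lineage markers, at 1, 1, 2 and 3 of 6 vascular markers, and at 0 of 6 microglia markers in each list. Progenitor and astrocyte counts were thus higher in the 2 longer lists, as were the site counts of the replication genes. For astrocytes in cKO KCl this rests on Aldoc alone (fold 2.60), and the 4 markers of WT basal had no start peak there. Neuron marker counts were 5, 4, 4 and 4 in the same order. Snap25 lacked a start peak in WT KCl alone, and Stmn2 had one in both WT lists only. Neuron, oligodendrocyte lineage, vascular and microglia counts were not higher in both of the longer lists. Over all protein-coding genes the share with a start peak was also higher in the longer lists. It was 47.6% (basal) and 41.3% (KCl) in WT and 40.2% and 46.8% in cKO. The part of other cell types in the results below was not tested. Start peaks do not settle whether other cell types were present, and fewer cells with an open site and less opening per cell cannot be told apart.

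Most of the replication genes had an open start in every condition. A site at the gene start, meaning within 1 kb of an annotated start, had a peak in all 4 lists at 7 of the 10 genes, Mcm3, Mcm4, Mcm5, Mcm6, Mcm7, Pcna and Mki67, against 30.5% of all protein-coding genes. By list the number was 8 of 10 (all genes 47.6%) at rest and 7 (41.3%) with KCl in WT, and 7 (40.2%) at rest and 8 (46.8%) with KCl in cKO. Top2a made the difference between lists, and Mcm2 and Tyms had no start peak in any, as did 42.4% of all genes. These counts were the same when all lists were cut to the length of the shortest, when the −log10 q of a peak had to reach 3, and when the distance was set to 500 bp or 2 kb. The start folds given below stand beside list-wide levels that also differed. Over all genes with a start peak the median start fold was 3.53 (basal) and 3.48 (KCl) in WT. In cKO it was 3.34 and 3.74, so cKO KCl was highest and cKO basal lowest.

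Among the helicase genes Mcm4 had the strongest start peak. Its site, chr16:15636954-15638090, lies across the upper end of the gene body (chr16:15623897-15637400) and the start of Prkdc, the catalytic subunit of the DNA-dependent protein kinase, and cannot be assigned to one of the 2 genes. For Mcm4 either end of the gene body stood in for the start. The fold over local background at this site was 5.92 basal and 5.13 with KCl in WT, and 5.56 basal and 5.85 with KCl in cKO, from 64, 49, 61 and 60 fragments. In each list this ranked above 91% of the genes with a start peak, the lowest percentile being 91.4 in cKO KCl.

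Mcm3 (gene body chr1:20802966-20820312) had a start site at chr1:20820098-20820563, which overlaps the first bases of the gene. Its fold was 4.17 basal and 3.41 with KCl in WT, and 3.80 basal and 5.57 with KCl in cKO, with 49, 35, 42 and 56 fragments. The cKO KCl list had the highest value and WT KCl the lowest.

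Mcm5 (chr8:75109468-75128439) had a start site at chr8:75109318-75109965, with a fold of 3.24 basal and 4.11 with KCl in WT, and 4.37 basal and 5.04 with KCl in cKO. Fragments at the summit numbered 42, 43, 57 and 59 over local backgrounds of 12.28, 9.70, 12.28 and 10.90. Against WT KCl the low WT basal fold went with a higher local background at about the same pileup. Against cKO basal the background was the same and the pileup was lower. The 3 E2F words of this promoter lie upstream of all 4 summits, which were 24 and 17 bases after the start in the WT lists, 12 after it in cKO basal and 21 before it in cKO KCl.

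Mcm6 (chr1:128331575-128359705) had a start site at chr1:128359293-128359875. The fold was 4.66 basal and 4.60 with KCl in WT, and 3.46 basal and 4.89 with KCl in cKO, with 47, 43, 36 and 49 fragments, so that cKO basal stood lowest by both measures. Its summit in cKO basal was 143 bases after the start, and those of the other lists were within 24 bases of it.

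Mcm7 (chr5:138164583-138172111) has 2 annotated starts and had a site at each. The site at the inner start, chr5:138171014-138171539, had a fold of 3.60 basal and 2.85 with KCl in WT, and 3.51 basal and 4.16 with KCl in cKO. The site at the outer start, chr5:138171870-138172526, which reaches into Ap4m1, the gene of a subunit of the AP-4 adaptor complex, had 3.54, 2.98, 3.15 and 3.34. Both were lowest in WT KCl, at 31 and 33 fragments, and both lie within 1 kb of the Ap4m1 start.

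Mcm2 (chr6:88883474-88898780) was the helicase gene without a start peak. The site nearest to its start was chr6:88902084-88902535, 3.5 kb upstream at the start of Tpra1, with a fold of 2.98 in WT basal, 2.63 in cKO basal and 3.06 in cKO KCl and no peak in WT KCl. The Mcm2 promoter holds a CCAAT box at -175 bp from the start, 2 GC boxes and 1 CHR word, and no E2F word as searched.

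Pcna (chr2:132249286-132253180) had the highest start fold of the 10 genes in WT basal, WT KCl and cKO KCl, and in cKO basal stood level with Mcm4 (5.54 and 5.56). At chr2:132253106-132253466, which also touches the gene body of Cds2, the fold was 7.48 basal and 6.28 with KCl in WT, and 5.54 basal and 7.37 with KCl in cKO, from 76, 57, 57 and 68 fragments. Both WT basal and cKO KCl stood above the other lists, and in each list the value ranked at the 96.0th percentile or higher among genes with a start peak. The summits lay at -86, -87, -108 and -96 bp from the start, and the only CCAAT box of the promoter begins at -87. A second site inside the gene, chr2:132252581-132252901, had 4.56, 4.11, 3.92 and 3.68.

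Mki67 (chr7:135689784-135716450) had a start site at chr7:135715930-135716825, with a fold of 3.78 basal and 2.98 with KCl in WT, and 3.15 basal and 3.61 with KCl in cKO. These rested on 38, 29, 32 and 35 fragments, the fewest among the genes with a start peak in all 4 lists in WT basal, WT KCl and cKO basal, and level with the inner Pcna site in cKO KCl.

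Top2a (chr11:98992947-99024199) was the only one of the 10 whose start was listed in some conditions and not in others. Its start site, chr11:99023979-99024482, had a fold of 3.10 in WT basal from 31 fragments and 2.99 in cKO KCl from 27 fragments, and no peak in WT KCl or cKO basal. The same pattern, a start peak in WT basal and cKO KCl alone, was found for 2.82% of all genes. Both Top2a peaks stood below the median start fold of their lists, 3.53 and 3.74, and the weakest peaks at the usual background of WT KCl and cKO basal had 20 and 22 fragments.

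Tyms (chr5:30038546-30073645) had no start peak and no site in WT KCl or cKO basal anywhere within 50 kb. The site inside the gene, chr5:30060363-30060562, was in WT basal alone with a fold of 2.72. Its promoter had the lowest CpG ratio of the 10 windows, no E2F word and no CCAAT box as searched, and 1 GC box.

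**Figure D1:**
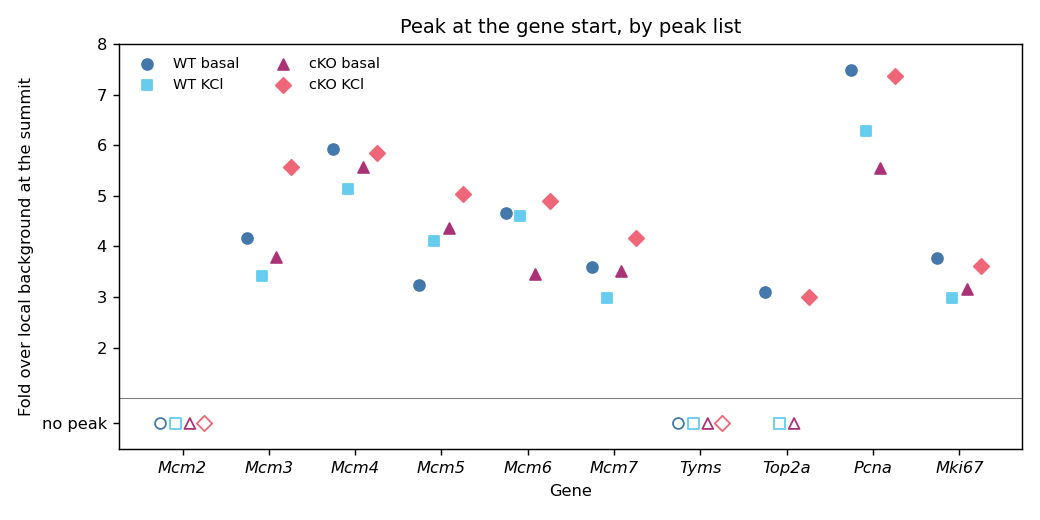
Fold over local background at the summit (vertical axis, linear) of the peak within 1 kb of the start of each gene (horizontal axis), the highest where there were 2, with 1 symbol per peak list; open symbols on the lowest line mark lists with no peak. Pcna reached 7.48 in WT basal, Top2a had a peak in WT basal and cKO KCl only, and Mcm2 and Tyms had none.

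Away from gene starts the picture was different. Of the 77 sites, 10 lay at the start of one of the 10 genes, 16 at the start of another gene, 2 inside one of the 10 genes, 21 inside another gene and 28 outside genes. Of the 26 sites at a gene start, 17 (65.4%, exact 95% Clopper-Pearson interval 44.3 to 82.8, which covers counting error only) were listed in all 4 conditions and 3 in only 1. Of the 51 sites away from starts, 0 had a peak in all 4 lists (interval 0 to 6.98%) and 44 (86.3%, 73.7 to 94.3) were in a single list. For the 52951 sites within 50 kb of any protein-coding gene, 40.5% of those at a start and 2.86% of those away from one were in all 4 lists, and 30.5% and 83.6% in a single list.

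The 8 sites in all 4 lists that were not at the start of one of the 10 genes lay at starts of neighbours. Near Mcm7 these were Zfp113 (fold 4.92 basal and 3.47 with KCl in WT, and 4.20 basal and 4.28 with KCl in cKO), Cops6, a COP9 signalosome subunit (3.20, 3.57, 2.58 and 3.30) and Mblac1 (3.17, 3.27, 2.92 and 2.99). Near Mcm2 they were Abtb1 (3.53, 2.71, 2.70 and 2.94) and 2 sites at Podxl2 (2.77, 2.68, 2.65 and 2.90, and 2.97, 3.00, 2.87 and 3.14). Near Mcm4 it was Ube2v2, a partner of ubiquitin-conjugating enzymes (5.24, 4.33, 3.72 and 4.17), and near Pcna it was Cds2, a CDP-diacylglycerol synthase (4.68, 5.20, 4.70 and 4.73). In the Mcm2 window the sites of all 4 lists thus belonged to neighbouring genes.

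**Figure D2:**
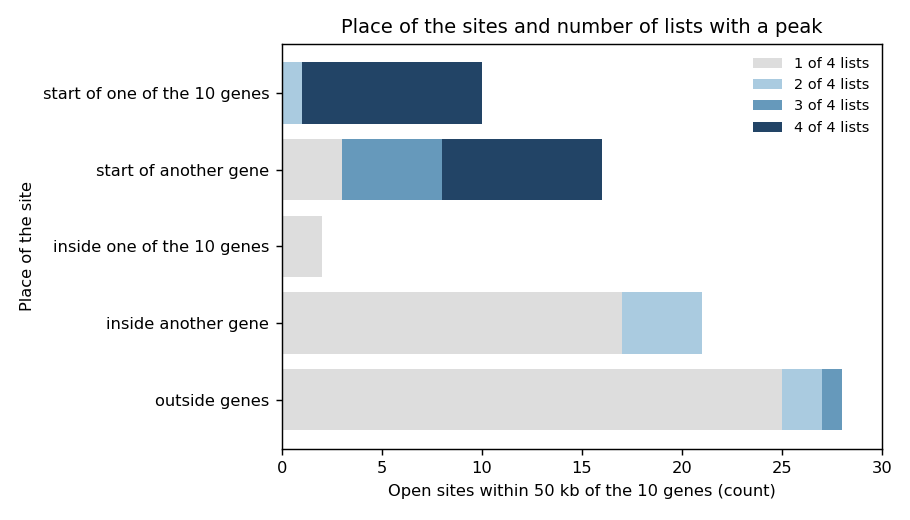
Number of open sites within 50 kb of the 10 genes (horizontal axis) by place (vertical axis), with shades for the number of lists, of 4, that had a peak. The sites of all 4 lists are at gene starts, and 44 of the 51 sites elsewhere are in a single list.

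Sites in a single list had folds between 2.07 and 3.25 at the 19 such sites of WT basal, 2.37 and 3.29 at the 4 of WT KCl, 2.31 and 3.34 at the 6 of cKO basal and 2.24 and 3.79 at the 18 of cKO KCl, from 23 to 44 fragments. Their median rank within the list was the 35.0th (basal) and 41.0th (KCl) percentile in WT and the 45.6th and 44.5th in cKO. Above the 50th percentile stood 4 of the 19, 2 of the 4, 3 of the 6 and 7 of the 18, the highest at 77.3 in cKO KCl. Sites in all 4 lists had median ranks of 85.1, 73.8, 79.1 and 83.7. By pattern, 24.7% of the 77 sites were in WT basal alone and 23.4% in cKO KCl alone, against 14819 and 8762 of the 52951 sites near any gene. Those of cKO basal alone (7.79%) and WT KCl alone (5.19%) stood beside 12.4% and 12.1%.

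The number of sites in the 10 windows was 48 basal and 26 with KCl in WT, and 27 basal and 46 with KCl in cKO. At gene starts, their own or a neighbour's, the counts were 24, 20, 19 and 25, and away from starts 24, 6, 8 and 21. Sites near any gene numbered 10659, 8765, 8582 and 10316 at starts and 18290, 8831, 9255 and 11968 away from them, so the counts away from starts differed more between lists over the whole series too. Per 1000 sites of each list the 10 windows held 1.44, 1.32, 1.36 and 1.84 sites.

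Mcm7, in a gene-dense stretch, had the most sites, with 9 basal and 6 with KCl in WT, and 6 basal and 9 with KCl in cKO. Mcm2 had 5, 3, 4 and 9, and Mcm5 had 7, 2, 3 and 5. Both were lowest in WT KCl, but Mcm2 was highest in cKO KCl and Mcm5 in WT basal. Mcm3 had 3, 1, 1 and 4, Mcm6 had 3, 4, 2 and 3, and Mcm4 had 2, 3, 3 and 2. Mcm4 was the one gene with more sites in WT KCl and cKO basal than in WT basal and cKO KCl. Tyms had 5, 0, 0 and 2, Top2a had 5, 2, 3 and 5, Pcna had 5, 4, 3 and 4, and Mki67 had 4, 1, 2 and 3. No other protein-coding gene had the 4 counts of Mcm2 and 1 had those of Mcm7, while 8 had those of Mcm5, among them Cdc20, the activator of the anaphase-promoting complex. For the other genes 8 (Tyms) to 39 (Pcna) genes had the same 4 counts, none of them in the pathway lists described below.

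**Figure D3:**
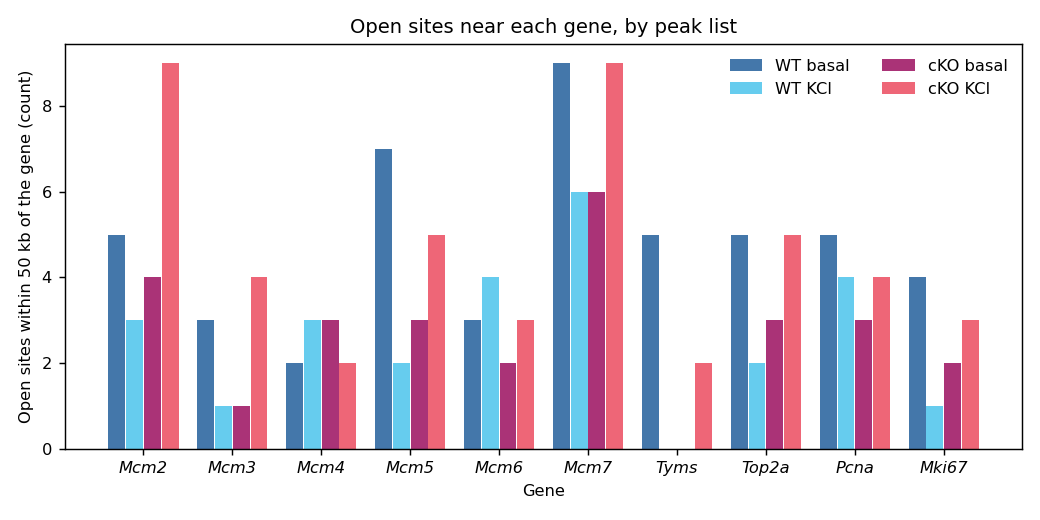
Number of open sites within 50 kb of each gene (vertical axis, from 0) for each gene (horizontal axis), 1 bar per peak list. WT basal and cKO KCl have the tallest bars at most genes, Mcm4 has 2, 3, 3 and 2 sites, and Tyms has no bar in WT KCl and cKO basal.

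Setting cKO basal against WT basal asks what the loss of Brg1 changes in unstimulated neurons. In cKO basal all genes but Mcm4, 9 of 10, had fewer sites, where 57.3% of all protein-coding genes did, with a median difference of -2 sites against -1 over all genes. Of the 54 sites in either list, 21 were in both, 27 (50.0%, 36.1 to 63.9) in WT basal only and 6 (11.1%, 4.19 to 22.6) in cKO basal only, against 51.8% and 21.8% of sites near any gene. The 2 strongest WT basal sites without a cKO basal peak lay outside genes, 31.3 kb upstream of Mcm5 (chr8:75078018-75078309, fold 3.25, 35 fragments) and 24.5 kb upstream of Tyms (chr5:30097995-30098277, 3.18, 33 fragments). In the other direction they lay inside Prkdc, 42.9 kb from Mcm4 (chr16:15680143-15680403, 3.34, 34 fragments), and 11.5 kb upstream of Top2a (chr11:99035557-99035777, 3.25, 37 fragments). All 4 were in a single list. With all lists cut to the 20229 peaks of the shortest, 4 of the 10 genes had fewer sites in cKO basal and 3 had more (all genes 29.8% and 29.1%), so the excess of lower counts was smaller between lists of one length. At that length 28.9% of sites were in WT basal only and 15.8% in cKO basal only (any gene 34.0% and 33.7%). Within 10 kb of the gene 4 had fewer and 0 had more (all genes 38.5% and 11.1%), and with sites limited to those nearest to the gene 5 had fewer and 1 had more (36.4% and 10.3%).

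Setting cKO KCl against WT KCl asks the same of depolarised neurons, and here the cKO list held more. In cKO KCl 7 of the 10 genes had more sites than in WT KCl, where 42.0% of all genes did, Mcm4 and Mcm6 had fewer (all genes 20.2%), and Pcna had 4 in both, with a median difference of 2.50 sites against 0 over all genes. Of 51 sites, 21 were in both lists, 25 (49.0%, 34.8 to 63.4) in cKO KCl only and 5 (9.80%, 3.26 to 21.4) in WT KCl only, against 42.3% and 27.0% of sites near any gene. The 2 strongest cKO KCl sites without a WT KCl peak lay outside genes on either side of Mcm5, 25.3 kb downstream of the start (chr8:75134660-75134913, fold 3.79, 39 fragments) and 25.6 kb upstream (chr8:75083778-75084121, 3.60, 35 fragments). The upstream site was also in WT basal (3.01) and cKO basal (3.58) and was thus missing from WT KCl alone. The strongest WT KCl sites without a cKO KCl peak lay inside Lct, the lactase gene beside Mcm6 (chr1:128323230-128323462, 3.29, 30 fragments), and 39.5 kb from the upper end of Mcm4 (chr16:15597843-15598042, 3.14, 28 fragments). At equal list length 6 of the 10 genes had more sites in cKO KCl and 2 had fewer (all genes 29.4% and 29.2%), and 44.7% of sites were in cKO KCl only and 12.8% in WT KCl only (any gene 33.5% and 32.9%). Within 10 kb of the gene 4 had more and 1 had fewer (all genes 28.9% and 15%), and among nearest sites 4 and 0 (26.4% and 13.9%).

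Depolarisation of WT neurons was examined by WT basal against WT KCl. Of the 10 genes, 8 had fewer sites in WT KCl (all genes 57.2%) and Mcm4 and Mcm6 had more (all genes 11.3%), with a median difference of -2.50 sites against -1. Of 53 sites, 21 were in both lists, 27 (50.9%, 36.8 to 64.9) in WT basal only and 5 (9.43%, 3.13 to 20.7) in WT KCl only, against 52.3% and 21.5% near any gene. The strongest WT basal site without a WT KCl peak was the start of Hmox1, heme oxygenase 1, a stress-induced enzyme whose gene lies 15.8 kb upstream of the Mcm5 start (chr8:75093522-75093884, fold 3.32, 48 fragments). It also had a peak in cKO basal (3.50) and cKO KCl (2.74). The next was the site 31.3 kb upstream of Mcm5 given above, and the strongest WT KCl sites without a WT basal peak were again those inside Lct and near Mcm4. At equal list length 5 genes had fewer sites in WT KCl and 3 had more (all genes 29.0% and 30.1%), with 33.3% of sites in WT basal only and 17.9% in WT KCl only (any gene 34.2% and 33.8%). Within 10 kb 4 had fewer and 1 had more (all genes 38.6% and 11.5%), and among nearest sites 5 and 0 (36.3% and 10.1%).

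In cKO neurons the lists differed in the other direction. Of the 10 genes, 9 had more sites in cKO KCl than in cKO basal (all genes 42.2%) and Mcm4 had fewer (all genes 20.1%), with a median difference of 2 sites against 0. Of 53 sites, 20 were in both lists, 26 (49.1%, 35.1 to 63.2) in cKO KCl only and 7 (13.2%, 5.48 to 25.3) in cKO basal only, against 41.9% and 27.4% near any gene. The strongest cKO KCl sites without a cKO basal peak were the start of the zinc finger gene Zscan21 in the Mcm7 window (chr5:138116780-138117212, fold 4.06, 37 fragments), which also had a peak in WT basal (2.72) and WT KCl (3.47), and the site 25.3 kb downstream of the Mcm5 start. Those of cKO basal without a cKO KCl peak were the sites inside Prkdc and upstream of Top2a given above. At equal list length 8 genes had more and 2 had fewer sites in cKO KCl (all genes 30.0% and 28.4%), with 43.8% of sites in cKO KCl only and 14.6% in cKO basal only (any gene 33.4% and 32.9%). Within 10 kb 4 had more and 1 had fewer (all genes 29.3% and 15.3%), and among nearest sites 3 and 1 (26.6% and 14.3%). The comparisons share lists, so their values are not independent of each other.

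**Figure D4:**
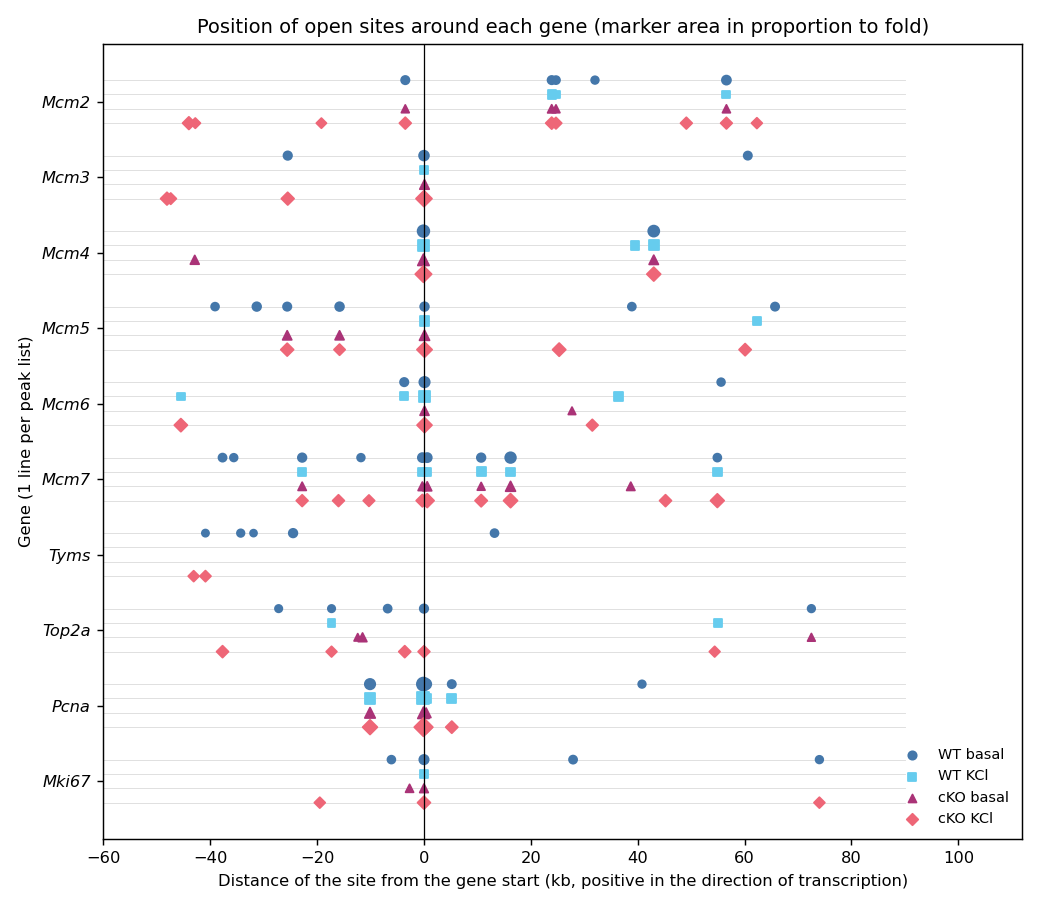
Distance of each open site from the start of its gene (horizontal axis, kb, positive in the direction of transcription; for Mcm4, whose strand is not in the table, from the upper end of the gene body and positive towards and past the lower end), with 1 line per gene and peak list on the vertical axis and marker area in proportion to fold. Sites at 0 repeat in all 4 lists for 7 genes, while most distant sites are on 1 line only, and the Tyms lines of WT KCl and cKO basal are empty.

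The windows hold sites at all distances up to the limit. The outermost inside were a cKO KCl site 48.0 kb from Mcm3 (fold 3.53) and the Zscan21 start 47.4 kb from Mcm7, and the first beyond the limit were a cKO basal site inside Hadha 53.3 kb from Tyms (3.09) and a site at Rara 55.1 kb from Top2a (2.24 in WT KCl and 2.33 in cKO KCl).

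The rest of the replication and cell cycle machinery was read from 5 lists of 99 other genes. A start peak in all 4 lists was found at 62 of the 99 (62.6%), beside 70.0% of the 10 genes and 30.5% of all genes, and 4 had none in any list, Prim1, a primase subunit, Tk1, thymidine kinase, Ccnb2, a mitotic cyclin, and the spindle checkpoint kinase gene Bub1. A start peak was found at 89 (basal, 89.9%) and 79 (KCl, 79.8%) of the 99 in WT and at 71 (71.7%) and 86 (86.9%) in cKO. Over all genes the shares in that order were 47.6%, 41.3%, 40.2% and 46.8%, so they too were lower in WT KCl and cKO basal.

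Genes that load and activate the helicase had the most uniform starts, with a peak in all 4 lists at 18 of 21. The exceptions were Gmnn, an inhibitor of origin licensing, and the kinase gene Cdc7, each without a peak in cKO basal alone, and Gins3, a subunit of the active helicase, with peaks in WT basal (3.11) and cKO basal (3.82) only. Of 21 polymerase and replication fork genes, 20 (basal) and 17 (KCl) had a start peak in WT and 13 and 17 in cKO. Pole2, a subunit of polymerase epsilon (2.82 in WT basal and 3.47 in WT KCl), and Rfc2, a subunit of the clamp loader (2.83 and 3.38), had a start peak in both WT lists and in neither cKO list. The reverse was found at Cdkn1a (2.30 in cKO basal and 3.23 in cKO KCl). The share of all genes with these patterns was not computed, and the genes were named after their values were seen. The folds of Pole2, Rfc2 and Cdkn1a were below the median start fold of each list concerned. These medians were 3.53 (basal) and 3.48 (KCl) in WT and 3.34 and 3.74 in cKO. The lowest fold at the usual background of cKO basal was 2.20, near the 2.30 of Cdkn1a. Whether genotype accounts for these patterns was not tested. Pola2 and Prim2, subunits of the polymerase alpha-primase complex, shared the pattern of Top2a, as did Umps, E2f4, Cdk2 and Bub1b of the other lists. Of 10 nucleotide supply genes 8, 8, 6 and 8 had a start peak, and Rrm1, the large subunit of ribonucleotide reductase (4.08, 3.90 and 4.70), lacked one in cKO basal alone. Of 22 E2F, pocket protein, G1 cyclin and kinase genes 19, 17, 13 and 20 did, with E2f1 (4.38, 3.65, 4.81 and 4.58) and Rb1 (3.50, 4.74, 2.86 and 4.06) in all 4 lists and the pocket protein genes Rbl1 and Rbl2 in all but cKO basal. Of 25 mitosis genes 21, 17, 20 and 21 did, and the highest start folds of Ccna2, cyclin A2, were in cKO KCl (7.49) and WT basal (6.91).

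**Figure D5:**
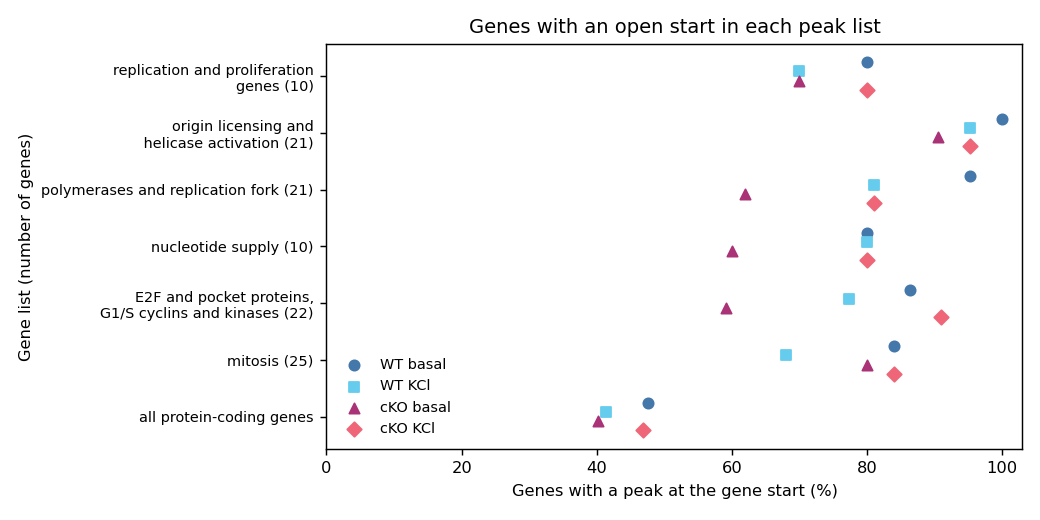
Percentage of genes with a peak within 1 kb of the gene start (horizontal axis) in each gene list (vertical axis, number of genes in brackets), 1 symbol per peak list. All the replication and cell cycle lists lie to the right of all protein-coding genes, which are at 40.2 to 47.6%, and cKO basal is lowest, or level with WT KCl, in each list except mitosis.

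Within 50 kb of these 99 genes, too, more genes had the higher count in the longer list. In cKO basal 60 (60.6%, all genes 57.3%) had fewer sites than in WT basal and 18 (18.2%, 11.4%) more, led by Bub1b (7 and 2), Cdc25c (8 and 3) and Cdc45 (7 and 2) on one side and Chaf1b (2 and 5), E2f2 (3 and 6) and Ccnd2 (3 and 5) on the other. In cKO KCl 59 (59.6%, all genes 42.0%) had more than in WT KCl and 15 (15.2%, 20.2%) fewer, with Ccnd2 at 3 and 8, Pola1 at 1 and 6 and Birc5 at 0 and 4, and in the other direction Cdkn1c at 4 and 1, Pole2 at 7 and 4 and Dut at 3 and 1. In WT KCl 64 (64.6%, all genes 57.2%) had fewer than in WT basal and 11 (11.1%, 11.3%) more. The former were led by Bub1b (7 and 1), Ccnd3 (10 and 4) and Cdc45 (7 and 1), and the latter by Cdkn1c, the gene of the cyclin-dependent kinase inhibitor p57 (0 and 4), Cdk6 (4 and 6) and Ncapd2 (5 and 7). In cKO KCl 48 (48.5%, all genes 42.2%) had more than in cKO basal, led by the helicase-related gene Mcm8 (2 and 7), Cdk4 (2 and 6) and E2f6 (0 and 4), and 22 (22.2%, 20.1%) fewer, led by Cdk1 (4 and 2), Cenpe (4 and 2) and Dbf4 (4 and 2). In 6 of these 8 sets the last gene named tied with 1 to 3 others and was taken in alphabetical order; Cdc45 and Ube2c, for example, also had 4 more sites in cKO KCl than in WT KCl. The median differences over the 99 genes, in the order of the 4 comparisons, were -1, 1, -1 and 0 sites, beside -1, 0, -1 and 0 over all genes.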

How the data were processed

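Each of the 4 conditions had 2 ATAC-seq libraries, and the labels state 60 M reads per library in 75-bp pairs. Per the submitters' processing notes, Bowtie2, MACS2 and the builds GRCm38 and mm10, names of the same assembly, were used; versions, settings, duplicate removal, any Tn5 offset and how libraries were combined are in none of the sources used. For each condition the authors deposited a single nucleosome-free peak list, whose values are a score, a fold (ratio) over local background, a −log10 p-value and a −log10 q-value. These are the authors' values, used to describe, rank or filter peaks within a list; lists were tied to conditions by genotype and treatment in their names.

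Chromosomes 1 to 19, X and Y were used, leaving out 5 mitochondrial peaks per list. Pileup and background were solved from fold, as (pileup + 1)/(background + 1), and p, with a whole-number pileup for 100% of peaks within 0.001 in −log10 p. Merging, window counts and this recovery were tested on simulated data (Python 3.11.15, pandas 2.3.3, scipy 1.17.1). Gene starts came from RefSeq promoter windows for 17492 of 21887 genes; for the other 4395 both ends of the gene body were used, in place of the start. Shares carry exact 95% Clopper-Pearson intervals; no test compares lists. Fragments are not independent molecules, so intervals cover counting error only.

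The 10 genes and all gene lists were chosen with earlier results of these data known. Described are all 10 genes, their start sites, the strongest sites, sites in all 4 lists, the 2 strongest sites on each side of a comparison, and in the pathway lists 3 genes with the largest differences each way (ties in alphabetical order); other start peaks named there were chosen after their values were seen. Alternatives were windows of 10 and 100 kb, nearest sites only, equal list length, −log10 q of at least 3, overlap of 50% of the shorter peak, and start distances of 500 bp and 2 kb. No columns of unmatched samples were present (0).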

Additional observations from a re-analysis of the deposited data

Results flagged for a closer look

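The difference between the KCl and the basal list had opposite signs in the 2 genotypes for 9 of the 10 genes, with 1 list per condition and no test of this difference. For all 10 genes together, WT KCl minus WT basal was -22 sites and cKO KCl minus cKO basal was 19. The WT and cKO differences were -2 and 5 at Mcm2, -2 and 3 at Mcm3, -5 and 2 at Mcm5, -3 and 3 at Mcm7, -5 and 2 at Tyms, -3 and 2 at Top2a, -1 and 1 at Pcna and -3 and 1 at Mki67. Mcm4 had the reverse, 1 and -1. Fewer sites after KCl in WT together with more in cKO were found at 8 of the 10 genes (80.0%) and at 28.5% of all protein-coding genes. At equal list length 5 of the 10, Mcm2, Mcm3, Mcm5, Tyms and Top2a, and 11.0% of all genes had this pattern. Within 10 kb of the gene Top2a alone had it, and with nearest sites only Mcm3, Mcm5 and Top2a did. Within 100 kb all of the 8 but Pcna had it. The share of all genes with the pattern was not computed for these 3 settings. The 10 kb and nearest-site settings also leave fewer sites per gene, so these counts do not show where the pattern arose.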

How the results depend on the processing

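Of 64 alternative values for the 8 shares and 4 start counts, 56 stayed within the interval of the share or within 1.5 times the count, among them all 16 for the start counts. With a window of 10 kb, where starts make up more of the sites, the share in WT basal only was 29.2% against cKO basal and 26.1% against WT KCl, and that in cKO KCl only was 26.1% against WT KCl and 26.1% against cKO basal. At equal list length the share in WT basal only was 28.9% against cKO basal and 33.3% against WT KCl (any gene 34.0% and 34.2%); this setting removes the weakest peaks of the longer lists. With nearest sites only, the share in WT KCl only was 0% against cKO KCl (of 15 sites) and 0% against WT basal (of 16 sites). The cause of the last changes was not tested. Leaving out a library was not possible with 1 list per condition. No paired analysis was possible because each list stands for both libraries of its condition. At the most frequent background of each list the weakest peaks called had 20 to 22 fragments, and more are needed where the local background is higher. The same alternatives for the number of genes with more or fewer sites were chosen after seeing the data.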
